A study of Homo sapiens with 10 samples.

Results

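Glucose metabolism and the response to low oxygen were followed here through 38 genes: the enzymes of glycolysis, the enzymes that settle the fate of pyruvate, the proteins that sense oxygen, and genes known to respond to hypoxia. Members were all probe sets whose platform annotation names exactly 1 gene, where that gene is among the 38. This gave 97 probe sets of the 54675 on the array, and all 38 of the 19775 genes that were named in this way. Of the 97, 80 passed a filter on low values and were tested, 14 did not pass, and 3 were the array's own GAPDH controls, which were left out of the test. The tested probe sets covered 37 genes, since both probe sets of PFKL, the liver-type phosphofructokinase gene, lay below the filter on all 10 arrays. The 38 genes were chosen with earlier results of these data known.

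The samples were IMR90 cells, a human lung fibroblast line of fetal origin that stops dividing after prolonged passage, and the expression of each gene was read on Affymetrix HG-U133 Plus 2.0 arrays. Senescent cells at 90 population doublings, kept in the dish for 2 weeks after growth had ceased, gave 5 arrays. Proliferating cells at 28 population doublings gave the other 5 arrays. All cells were kept at 3% oxygen, below that of room air, and in 10% serum, so oxygen supply was not a variable of the study and neither group is a hypoxic or normoxic control for the other. Senescence was judged by the submitters from p16, cyclins and beta-galactosidase staining. Population doublings and growth state differ together and cannot be told apart. All cells belong to the same line. Whether the 5 arrays of a state were separate cultures is not stated, and p-values therefore cover the spread among these arrays, which could be technical.

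Glycolysis splits glucose into pyruvate through a series of enzymes, most of which exist as isoforms encoded by separate genes. Pyruvate is then either reduced to lactate by lactate dehydrogenase or oxidised in mitochondria by pyruvate dehydrogenase, which pyruvate dehydrogenase kinases switch off. When oxygen is scarce, the prolyl hydroxylases of the EGLN family lose activity, the HIF alpha subunits escape ubiquitination by the VHL protein, pair with ARNT and activate genes of glycolysis, pH control, matrix hydroxylation and growth restraint.

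Values are the deposited log2 values. Array medians were 3.05 to 3.12 in senescent and 3.05 to 3.07 in proliferating samples, and correlations over tested probe sets were 0.992 to 0.997 within groups and 0.940 to 0.947 between them. Signs of RNA integrity differed between the groups in 3 of 4 control comparisons. For ACTB, the signal at the 3' end over that at the 5' end was 2.32 ± 0.10 in senescent and 2.07 ± 0.14 in proliferating samples (log2, SD, n = 5 each, exact permutation p = 0.00794, adjusted over 4 controls 0.0106). For GAPDH the same difference was 0.12 ± 0.09 in senescent and -0.03 ± 0.18 in proliferating samples (SD, n = 5 each) and did not pass (exact permutation p = 0.135), while the 3' end over the middle was higher in senescent samples for both ACTB (by 0.18) and GAPDH (by 0.23, adjusted 0.0106 each). All 12 fibroblast markers were tested, of which 4 rose and 3 fell. Of 12 epithelial markers 8 lay below the filter, and of the 4 tested EPCAM, KRT19 and KRT18 fell (-2.31, -1.26 and -0.46 log2) and SFTPC rose, their summed log2 level ranging from 24.6 to 26.2 in senescent and from 28.9 to 29.5 in proliferating samples. In the smooth muscle list 3 of 7 tested markers rose and 2 fell, 1 of 9 endothelial markers was tested (TEK, which rose), and of 10 leukocyte markers the 2 tested lay in the lower part of the array in both groups. The part of these markers in the results below was not tested.

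Senescent arrays carried less transcript signal for most of the glycolytic chain and for 6 of the 9 members grouped as other hypoxia-responsive genes, with clear exceptions in both. A list of 26 further hypoxia-responsive genes, given near the end, was divided, with 10 lower and 9 higher. A probe set was called where limma's two-sided test gave a Benjamini-Hochberg adjusted p below 0.05 over all 32732 tested probe sets, and where a gene had several tested probe sets, the brightest on average over the 10 arrays stood for it. "Rose" and "fell" are used below for genes past that threshold. Of the 37 tested genes, 23 fell and 9 rose, which is 86.5% called, beside 60.2% of all 12909 tested genes, 29.8% lower and 30.5% higher. The members that fell thus made up 62.2% of those tested and the members that rose 24.3%. Over probe sets, 49 of 80 fell and 12 rose, beside 53% of all tested probe sets called, 26.2% lower and 26.9% higher. The 5 senescent values did not overlap the 5 proliferating values for 29 of the 37 genes, 22 lower and 7 higher, beside 51.8% of all tested genes. The median difference was -0.42 for the member genes and 0.04 for all tested genes (log2, senescent minus proliferating). A fall of at least 1 on the log2 scale, which is 2-fold, was seen for 11 member genes beside 10.2% of all genes, and a rise of that size for 3 beside 10% of all genes.

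All 37 genes passed the filter through both groups. Without any filter, 23 members fell and 8 rose, beside 38.0% of all 19775 genes called. With the ACTB control difference as a covariate 21 fell and 5 rose, beside 47.7% of all tested genes called. ALDOA, PFKFB3, PKM, ARNT, P4HA2 and MXI1 then no longer passed (limma's adjusted p 0.086 to 0.46). The ACTB difference itself differed between the groups (exact permutation p = 0.00794). Its part in these lost calls therefore cannot be told apart from that of state. Without probe sets whose IDs mark them as possibly shared between transcripts, 12 of the 25 genes that remained fell and 6 rose. Over all 10471 genes tested in that setting, 2837 fell and 3154 rose.

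**Figure D1:**
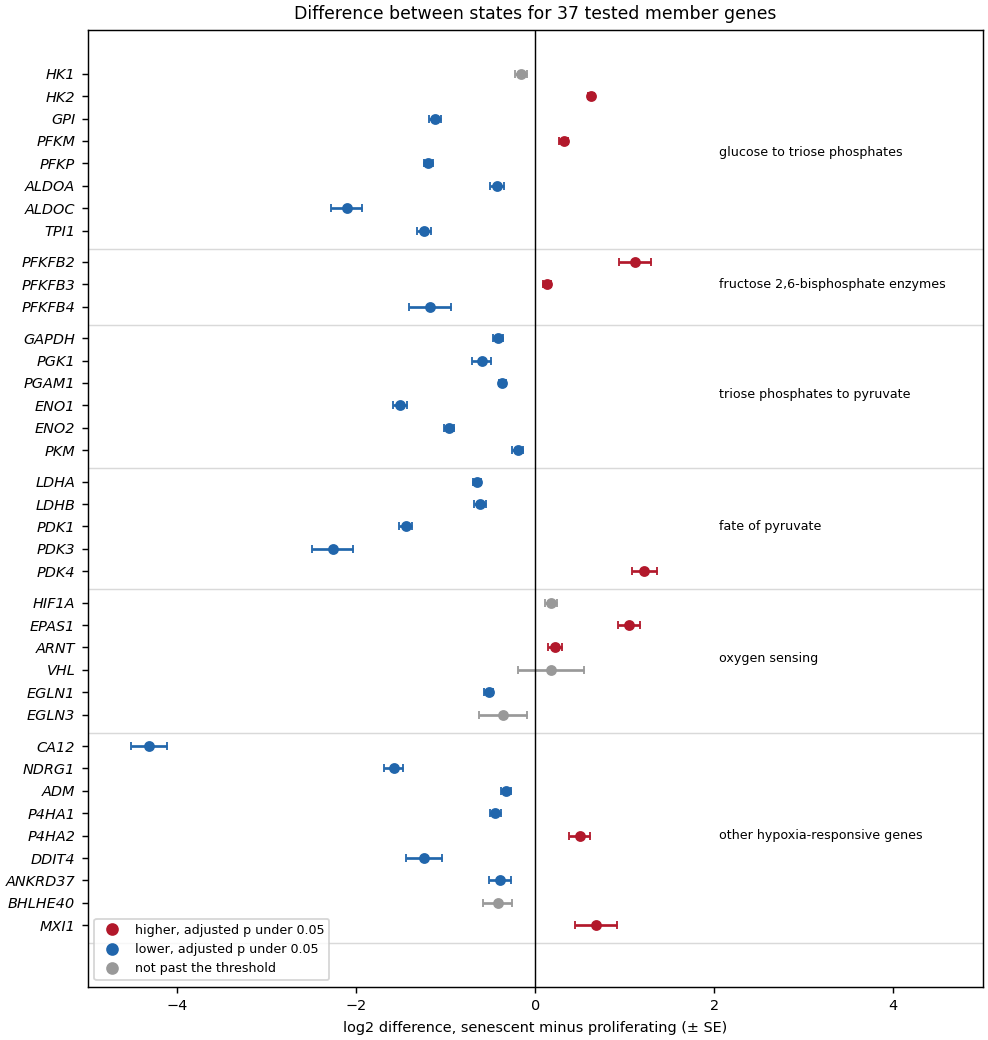
Log2 difference (x axis, senescent minus proliferating) of each of the 37 tested member genes, by role, with limma's standard error as the bar. Colours mark the 9 genes that rose, the 23 that fell and the 5 that did not pass, with CA12 farthest to the left at -4.32.

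Many hypoxia-responsive genes carry the letters ACGTG or GCGTG, the core that HIF dimers recognise, near their start. RefSeq promoter windows (GRCh38.p14) of 300 bases, 250 before and 50 after an annotated start, matched 35 of the 38 members, some with several starts, which gave 60 windows. NDRG1, VHL and PFKFB2 were not matched. Either core on either strand was found in at least 1 window of 30 of the 35 matched members (85.7%). Among all 27305 genes with windows, tested or not, the share was 52.4%. Cores were found for 21 of the 22 matched members that fell, 5 of the 8 that rose and 3 of the 4 not called. The members were chosen as glycolysis and hypoxia-responsive genes, so a share above that of all genes is no result about their change. Counted over windows, 39 of the 60 held a core, beside 48.4% of all 35116 windows. These were 25 of 30 for members that fell (83.3%), 9 of 18 for members that rose and 4 of 11 for members not called. A link between cores and the direction of change was not tested. Windows of a gene can overlap, and these letters describe sequence only. The windows below belong to ALDOC, PGK1, ENO1, LDHA and PDK1, which fell at successive points of the pathway, and to PDK4, which rose and holds neither core. They are examples, and other members ran the other way. HK2, which rose, holds 4 ACGTG and 2 GCGTG in 1 window and 2 ACGTG and 1 GCGTG in another. PGAM1, which fell, holds neither core. For LDHA and PDK1, which have 2 windows each, the window with more cores is shown. Capitals mark ACGTG or GCGTG read on either strand, which appear as CACGT or CACGC where the opposite strand carries them, and the palindrome CACGTG counts on both strands. The windows lie at chr17:28576846-28577145 on the minus strand, chrX:78103998-78104297 on the plus strand, chr1:8878637-8878936 on the minus strand, chr11:18394313-18394612 on the plus strand, chr2:172555840-172556139 on the plus strand and chr7:95596467-95596766 on the minus strand (5' to 3' in the direction of the gene).
ALDOC: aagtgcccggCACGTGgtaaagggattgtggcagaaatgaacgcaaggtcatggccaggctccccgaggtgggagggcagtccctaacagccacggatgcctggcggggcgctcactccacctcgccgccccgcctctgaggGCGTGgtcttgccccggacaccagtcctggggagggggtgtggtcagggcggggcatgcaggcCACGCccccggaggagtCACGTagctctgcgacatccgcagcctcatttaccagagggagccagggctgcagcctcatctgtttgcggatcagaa
PGK1: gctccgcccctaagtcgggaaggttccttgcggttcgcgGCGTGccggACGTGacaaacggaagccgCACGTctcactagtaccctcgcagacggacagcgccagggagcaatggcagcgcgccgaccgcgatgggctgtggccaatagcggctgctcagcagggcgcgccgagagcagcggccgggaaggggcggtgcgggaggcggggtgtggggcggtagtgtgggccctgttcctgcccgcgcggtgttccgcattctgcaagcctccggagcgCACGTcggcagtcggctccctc
ENO1: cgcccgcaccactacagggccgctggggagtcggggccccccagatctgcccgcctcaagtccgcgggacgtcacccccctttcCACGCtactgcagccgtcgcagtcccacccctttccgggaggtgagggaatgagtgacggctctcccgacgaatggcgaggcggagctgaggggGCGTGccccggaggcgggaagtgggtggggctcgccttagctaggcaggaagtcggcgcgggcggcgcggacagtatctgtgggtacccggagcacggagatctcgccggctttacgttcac
LDHA: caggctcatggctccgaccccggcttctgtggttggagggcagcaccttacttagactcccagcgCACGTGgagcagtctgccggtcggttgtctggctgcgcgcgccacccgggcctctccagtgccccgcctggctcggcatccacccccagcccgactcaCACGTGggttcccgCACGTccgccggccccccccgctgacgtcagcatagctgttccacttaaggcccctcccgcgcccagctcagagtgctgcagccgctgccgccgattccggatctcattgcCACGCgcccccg
PDK1: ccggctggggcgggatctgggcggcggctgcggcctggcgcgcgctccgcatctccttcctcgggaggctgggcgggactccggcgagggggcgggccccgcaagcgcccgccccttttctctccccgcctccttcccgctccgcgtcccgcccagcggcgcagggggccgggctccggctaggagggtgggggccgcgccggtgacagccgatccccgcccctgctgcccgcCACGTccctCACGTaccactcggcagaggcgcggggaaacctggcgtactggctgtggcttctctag
PDK4: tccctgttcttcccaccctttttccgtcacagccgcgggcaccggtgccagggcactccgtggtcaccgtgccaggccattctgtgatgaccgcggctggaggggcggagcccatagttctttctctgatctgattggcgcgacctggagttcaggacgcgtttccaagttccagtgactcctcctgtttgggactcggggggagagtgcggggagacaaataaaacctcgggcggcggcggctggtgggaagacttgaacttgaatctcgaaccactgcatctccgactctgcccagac
The LDHA window holds 6 cores, 4 of them as both strands of 2 CACGTG palindromes. The ALDOC window holds 5, the PGK1 window 4, and the ENO1 and PDK1 windows 2 each.

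From glucose to the triose phosphates, 5 of 8 tested genes fell and 2 rose, beside 29.8% lower and 30.5% higher of all tested genes. The median difference was -0.77. ALDOC, an aldolase isoform best known from brain, had log2 values of 3.87, 4.39, 4.44, 3.88 and 3.64 on senescent arrays 1 to 5, against 6.10, 6.14, 6.34, 6.37 and 5.80 on proliferating arrays 1 to 5. All senescent values lay below all proliferating ones and also below the array's 60th percentile (4.64 to 4.77), so the size of this fall depends on the authors' background correction. It was -2.11 (SE 0.17, limma's adjusted p = 3.0e-06, exact permutation p = 0.00794, below which 252 possible assignments of the arrays cannot go). ALDOA, the main aldolase gene of muscle and fibroblasts, had 11.74 ± 0.09 in senescent and 12.16 ± 0.16 in proliferating cells (SD, n = 5 each), a fall on all 3 of its probe sets (-0.42 on the brightest, limma's adjusted p = 0.0013).

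TPI1, which encodes triosephosphate isomerase, had 11.45, 11.44, 11.66, 11.41 and 11.59 on senescent arrays, against 12.85, 12.86, 12.79, 12.74 and 12.53 on proliferating arrays. The groups did not overlap, and the difference was -1.25 (SE 0.08, limma's adjusted p = 3.6e-07), or 2.37-fold lower, and -1.19 on another probe set. A TPI1 probe set whose ID does not mark it as shared gave -0.41 and did not pass (limma's adjusted p = 0.16).

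PFKP, the platelet-type phosphofructokinase gene, had 12.15, 12.12, 12.21, 12.04 and 12.00 on senescent arrays, against 13.35, 13.20, 13.34, 13.33 and 13.28 on proliferating arrays. Spread within each group was small beside the gap of -1.20 (SE 0.05, limma's adjusted p = 2.9e-08). The mean of its 2 tested probe sets fell by 0.59, since a dim probe set gave 0.02. PFKM, the muscle-type gene for the same step, rose, with 10.66 ± 0.08 in senescent and 10.34 ± 0.07 in proliferating cells (SD, n = 5 each), a difference of 0.32 (limma's adjusted p = 0.00046).

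GPI, the gene of glucose-6-phosphate isomerase, had 9.87, 9.95, 9.92, 9.84 and 9.80 on senescent arrays, against 10.95, 11.14, 10.80, 11.12 and 10.97 on proliferating arrays, without overlap. The difference was -1.12 (SE 0.07, limma's adjusted p = 3.3e-07), which is 2.18-fold lower. Hexokinases trap glucose in the cell, and their isoforms did not move alike. HK2, the inducible isoform, rose in all 3 of its probe sets and had 12.17 ± 0.02 in senescent and 11.54 ± 0.05 in proliferating cells (SD, n = 5 each), a 1.54-fold difference with limma's adjusted p = 2.1e-07. HK1, the isoform found in most tissues, had 10.01 ± 0.13 in senescent and 10.17 ± 0.07 in proliferating cells, a difference of -0.16 that did not pass (limma's adjusted p = 0.076, exact permutation p = 0.0476).

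PFKL was not tested, and its 2 probe sets averaged 1.56 and 1.37 in senescent and 1.61 and 1.38 in proliferating cells, near the bottom of the scale. Its transcript was not detectable above the array's low end in either group, which does not show that it is absent.

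**Figure D2:**
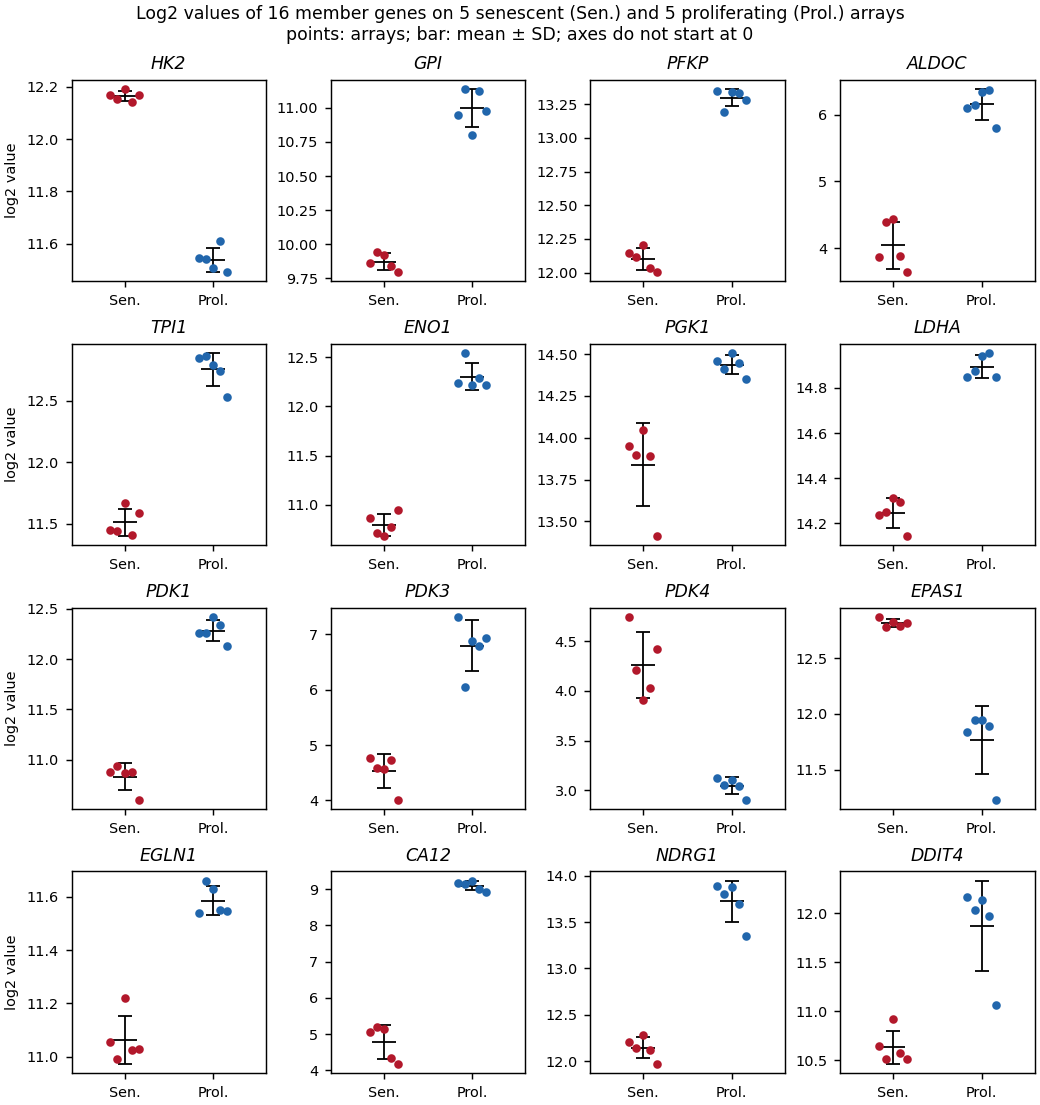
Log2 values (y axes, not starting at 0) of 16 member genes on each of the 5 senescent and 5 proliferating arrays, with the mean and SD as bars. The groups do not overlap in any of these 16, which were picked for display, beside 29 of the 37 tested members and 51.8% of all tested genes. Members whose groups overlap, such as HK1 and PFKFB3, are not shown. HK2, PDK4 and EPAS1 are the 3 shown that are higher in senescent cells. Senescent array 5 lies low for PGK1 (13.41), and proliferating array 5 for EPAS1 (11.23) and DDIT4 (11.06).

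The PFKFB enzymes make and break down the sugar bisphosphate that activates phosphofructokinase, and their 3 genes split. PFKFB4 had 3.28, 3.38, 4.42, 3.31 and 3.36 on senescent arrays, against 5.07, 4.87, 4.57, 4.78 and 4.32 on proliferating arrays. Senescent array 3 lay above the lowest proliferating value, so the groups overlapped. All senescent values were below the 60th percentile of their arrays, where size may depend on the background correction. The difference was -1.18 (SE 0.23, limma's adjusted p = 0.0016, exact permutation p = 0.0159). PFKFB2, the isoform known from heart, had 4.51, 4.64, 4.23, 4.68 and 3.73 on senescent arrays, against 3.53, 3.19, 3.02, 3.35 and 3.15 on proliferating arrays. These values do not overlap, but all lay below the 60th percentile of their arrays, and the rise of 1.11 (limma's adjusted p = 0.00044) is a difference within the dim range. Its other 3 probe sets were below the filter.

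PFKFB3, the inducible isoform with the strongest kinase activity, had 12.96, 12.92, 12.85, 12.96 and 12.95 on senescent arrays, against 12.84, 12.72, 12.82, 12.87 and 12.72 on proliferating arrays. The ranges overlapped, and the difference of 0.13 (SE 0.05, limma's adjusted p = 0.030) passed the threshold narrowly. Under 11 of 22 alternatives it did not pass (adjusted p up to 0.44).

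Between the triose phosphates and pyruvate, all 6 genes fell, with a median difference of -0.51, beside 29.8% lower of all tested genes. ENO1, the ubiquitous enolase gene, had 10.86, 10.71, 10.68, 10.77 and 10.94 on senescent arrays, against 12.24, 12.54, 12.22, 12.29 and 12.22 on proliferating arrays. It was 2.85-fold lower in senescent cells (-1.51, SE 0.08, limma's adjusted p = 9.4e-08), and its 3 probe sets with shared-type IDs all fell, at most by 1.54. The remaining probe set, much dimmer, gave -0.36 and did not pass (limma's adjusted p = 0.062). ENO2, the enolase gene known as neuronal, had 11.11, 11.08, 11.06, 11.02 and 10.88 on senescent arrays, against 12.05, 12.05, 11.99, 11.92 and 11.94 on proliferating arrays, a difference of -0.96 (SE 0.05, limma's adjusted p = 1.5e-07). Both enolase genes were thus lower on every senescent array.

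PGK1, phosphoglycerate kinase, had 13.95, 13.90, 14.05, 13.89 and 13.41 on senescent arrays, against 14.46, 14.41, 14.51, 14.45 and 14.35 on proliferating arrays. Senescent array 5 was the lowest by a wide margin, and the fall of 0.60 (SE 0.11, limma's adjusted p = 0.00084) was 0.49 without it. All 6 PGK1 probe sets fell, by 0.54 to 1.03. GAPDH, often used as a loading control, had 12.79, 12.82, 12.76, 12.85 and 12.83 on senescent arrays, against 13.17, 13.40, 13.20, 13.15 and 13.22 on proliferating arrays. Its 3 tested probe sets fell by 0.42, 0.42 and 0.45. The array's GAPDH controls, placed along the transcript, were lower by 0.26 at the 3' end, 0.50 in the middle and 0.41 at the 5' end (exact permutation p = 0.00794 each). GAPDH was therefore lower in senescent cells at each of the 3 positions, and the size varied with position.

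PGAM1, phosphoglycerate mutase, fell by 0.37 with 13.20 ± 0.05 in senescent and 13.57 ± 0.04 in proliferating cells (SD, n = 5 each). PKM, the main pyruvate kinase gene, whose splice forms were not separated here, fell by 0.20 (limma's adjusted p = 0.016), at 12.10 ± 0.10 in senescent and 12.30 ± 0.06 in proliferating cells (SD, n = 5 each). A second, dimmer PKM probe set gave 0.23 (adjusted p = 0.21), and with each array centred on its median or on reference genes PKM did not pass (adjusted p = 0.060 and 0.091). Genes of this stretch have many processed pseudogenes, and signal from similar transcripts cannot be told apart from their own on shared probe sets.

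**Figure D3:**
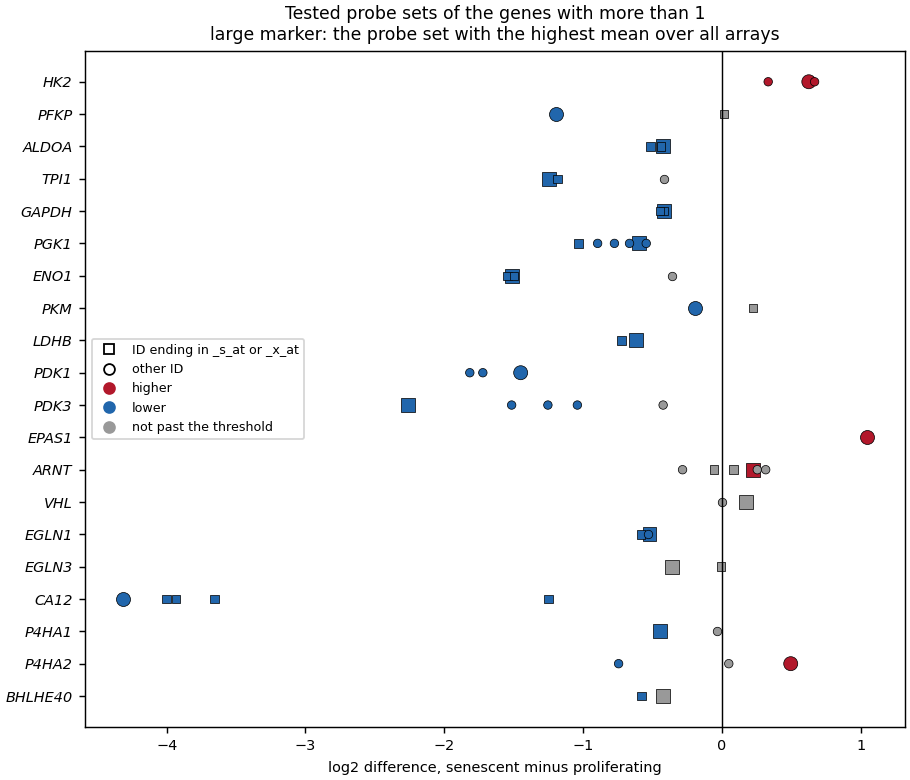
Log2 difference (x axis, senescent minus proliferating) of every tested probe set of the 20 genes with more than 1, squares for IDs ending in _s_at or _x_at and circles for others. For 9 genes every probe set was called in the same direction, for 8 some were not called, 2 had no call, and P4HA2 had calls in opposite directions (0.50 and -0.74).

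At the fork after pyruvate 4 of 5 genes fell and 1 rose, beside 29.8% lower and 30.5% higher of all tested genes. The kinases that block pyruvate dehydrogenase moved in opposite directions. PDK3 had 4.77, 4.58, 4.57, 4.73 and 4.01 on senescent arrays, against 7.32, 6.04, 6.88, 6.79 and 6.94 on proliferating arrays. The senescent values, all below the 60th percentile of their arrays, lay below every proliferating value, with a difference of -2.26 (SE 0.23, limma's adjusted p = 1.3e-05). Of its 5 tested probe sets 4 fell, by 1.04 to 2.26, and the mean of the 5 fell by 1.30. PDK1, a kinase gene induced by HIF in hypoxic cells, had 10.88, 10.94, 10.87, 10.88 and 10.60 on senescent arrays, against 12.25, 12.26, 12.42, 12.34 and 12.13 on proliferating arrays. All 3 PDK1 probe sets fell, by 1.45 to 1.82 (limma's adjusted p at most 4.8e-05).

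PDK4, the kinase gene known to respond to fasting and fatty acids, went the other way. It had 4.75, 4.21, 3.91, 4.03 and 4.42 on senescent arrays, against 3.12, 3.05, 3.10, 3.04 and 2.90 on proliferating arrays. No values overlapped, and the difference was 1.22 (SE 0.14, limma's adjusted p = 4.0e-05), but only 1 of its 3 probe sets was tested and the signal was low in both groups.

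LDHA, the lactate dehydrogenase subunit gene that favours lactate formation, had 14.24, 14.25, 14.31, 14.29 and 14.14 on senescent arrays, against 14.85, 14.88, 14.94, 14.96 and 14.85 on proliferating arrays. LDHB, the subunit known from heart, had 13.21 ± 0.14 in senescent and 13.83 ± 0.02 in proliferating cells (SD, n = 5 each). Both fell, by 0.65 (SE 0.04, limma's adjusted p = 8.7e-07) and 0.62 (SE 0.06, adjusted p = 1.6e-05), and neither overlapped between the groups.

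The genes that sense oxygen were divided, with 2 of 6 tested genes higher, 1 lower and 3 not called, and a median difference of 0.18. These shares lie near those of all tested genes (30.5% higher, 60.2% called), and the values are given as a description of each gene. EPAS1, which encodes HIF-2 alpha, had 12.87, 12.78, 12.83, 12.79 and 12.82 on senescent arrays, against 11.83, 11.94, 11.95, 11.89 and 11.23 on proliferating arrays. The senescent values were tightly grouped and above all proliferating ones, of which array 5 was the lowest. The rise of 1.05 (SE 0.13, limma's adjusted p = 5.5e-05), 2.07-fold, was 0.91 without that array. HIF1A, the gene of HIF-1 alpha, whose protein is regulated mainly by breakdown, had 12.28 ± 0.06 in senescent and 12.10 ± 0.14 in proliferating cells (SD, n = 5 each). Its difference of 0.17 missed the threshold (limma's adjusted p = 0.055) and passed under 9 of 23 alternatives.

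EGLN1, the main prolyl hydroxylase gene that marks HIF for breakdown, had 11.05, 10.99, 11.22, 11.03 and 11.03 on senescent arrays, against 11.54, 11.66, 11.63, 11.55 and 11.55 on proliferating arrays. It fell by 0.52 (SE 0.05, limma's adjusted p = 1.3e-05), and all 3 of its tested probe sets fell by 0.52 to 0.58. ARNT, the shared partner of the HIF alpha subunits, had 9.96, 9.88, 9.78, 9.75 and 10.01 on senescent arrays, against 9.76, 9.63, 9.75, 9.69 and 9.43 on proliferating arrays. These ranges overlapped, and the difference of 0.22 (SE 0.08, limma's adjusted p = 0.032) did not pass under 13 of 23 alternatives. The other 5 tested ARNT probe sets were not called.

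EGLN3, a hydroxylase gene that HIF itself induces, had 3.34 ± 0.17 in senescent and 3.70 ± 0.63 in proliferating cells, and VHL 3.80 ± 0.54 in senescent and 3.62 ± 0.72 in proliferating cells (SD, n = 5 each). Neither difference passed, -0.36 for EGLN3 and 0.18 for VHL (limma's adjusted p = 0.29 and 0.69). EGLN3 was dim on all arrays and VHL on all but proliferating array 3 (4.90), and the spread among proliferating arrays exceeded both differences.

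Of the 9 remaining hypoxia-responsive genes 6 fell and 2 rose, beside 29.8% lower and 30.5% higher of all tested genes. They included the largest fall among the members. CA12, a membrane carbonic anhydrase that handles acid outside the cell, had 5.06, 5.19, 5.13, 4.35 and 4.18 on senescent arrays, against 9.17, 9.15, 9.24, 9.01 and 8.93 on proliferating arrays. The groups did not overlap, and the difference was -4.32 (SE 0.20, limma's adjusted p = 5.3e-08), 19.9-fold on this scale. Senescent arrays 4 and 5 lay below the 60th percentile, as did all senescent values of the other 4 tested probe sets. The fold may therefore depend on the background correction. All 5 of its tested probe sets fell, by 1.25 to 4.32, the smallest on a probe set above the filter on proliferating arrays alone. NDRG1, a growth-restraining gene induced by stress, had 12.21, 12.14, 12.29, 12.12 and 11.97 on senescent arrays, against 13.89, 13.81, 13.88, 13.69 and 13.35 on proliferating arrays. Its fall of 1.58 (SE 0.11, limma's adjusted p = 7.1e-07) was 2.99-fold.

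DDIT4, whose product restrains mTORC1 signalling under stress, had 10.65, 10.52, 10.92, 10.57 and 10.51 on senescent arrays, against 12.16, 12.03, 12.13, 11.97 and 11.06 on proliferating arrays. Proliferating array 5 stood apart from the other 4 and came close to the senescent range. The fall was 1.24 (SE 0.20, limma's adjusted p = 0.00043) with that array and 1.44 without it (adjusted p = 1.3e-06). ADM, the gene of the vasodilator peptide adrenomedullin, fell by 0.33, with 12.40 ± 0.07 in senescent and 12.73 ± 0.09 in proliferating cells (SD, n = 5 each). ANKRD37, a HIF target, fell by 0.39, with 7.84 ± 0.18 in senescent and 8.23 ± 0.22 in proliferating cells (SD, n = 5 each). It did not pass without senescent array 5 and proliferating array 2 (limma's adjusted p = 0.051).

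BHLHE40, a transcriptional repressor of the clock and hypoxia responses, had 9.50 ± 0.10 in senescent and 9.92 ± 0.39 in proliferating cells (SD, n = 5 each). The difference of -0.42 did not pass (limma's adjusted p = 0.055), with proliferating array 5 at 9.23 and the other 4 at 10.00 to 10.15. Without that array it was -0.59 (adjusted p = 3.2e-05), and the gene's other probe set passed with all arrays (-0.58, adjusted p = 0.015).

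MXI1, whose product opposes MYC, rose and had 10.59, 10.58, 10.60, 10.58 and 10.33 on senescent arrays, against 9.97, 10.14, 10.13, 10.16 and 8.87 on proliferating arrays. Here too the last proliferating array was far below its group. The rise was 0.68 (SE 0.23, limma's adjusted p = 0.031) with it and 0.44 without it (adjusted p = 0.00073), and without senescent array 1, 2, 3 or 4 the adjusted p was 0.059 to 0.060.

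P4HA1 and P4HA2 encode the catalytic subunits of the enzyme that hydroxylates prolines in collagen. P4HA1 had 12.49 ± 0.03 in senescent and 12.94 ± 0.13 in proliferating cells (SD, n = 5 each), a fall of 0.45, while its other probe set gave -0.03 and was not called. P4HA2 had 11.79, 11.86, 12.04, 11.90 and 11.49 on senescent arrays, against 11.43, 11.28, 11.44, 11.44 and 10.99 on proliferating arrays, a rise of 0.50 (SE 0.12, limma's adjusted p = 0.0049). Another P4HA2 probe set went the opposite way, with 8.64, 8.48, 8.44, 8.81 and 8.75 on senescent arrays, against 9.19, 9.39, 9.61, 9.52 and 9.14 on proliferating arrays (-0.74, adjusted p = 0.00021). The direction of P4HA2 therefore depends on the probe set, and the mean of its 3 tested probe sets was -0.07 and did not pass.

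Senescent array 5 gave the lowest value of its group for 20 of the 37 member genes, and proliferating array 5 for 21. The median deviation of the members from their group mean was -0.11 on senescent array 5 and -0.13 on proliferating array 5, where over all tested probe sets it was 0.0014 and -0.0048. Without both arrays, a comparison chosen after seeing the data, 24 members fell and 8 rose, beside 58.1% of all tested genes called.

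Related genes were next compared within each array, where the scaling of the array drops out. Of 11 pairs fixed for this, 10 could be computed, PFKP with PFKL being left out, and p-values were adjusted over the 10. In 8 pairs the 2 genes changed unequally, with no overlap between the groups (exact permutation p = 0.00794, the lowest possible, adjusted 0.00992 for each). No such share was computed over other pairs of genes. Taken singly, 51.8% of all tested genes did not overlap, so the count of pairs is given as a description only. HK2 gained on HK1 by 0.79 (SE 0.08), PDK4 on PDK1 by 2.67 (SE 0.18), PFKFB3 on PFKFB4 by 1.31 (SE 0.26), EPAS1 on HIF1A by 0.87 (SE 0.09) and P4HA2 on P4HA1 by 0.94 (SE 0.09), all on the log2 scale. PFKP lost against PFKM (-1.51, SE 0.05), and ALDOC against ALDOA (-1.68, SE 0.23). ENO2 gained on ENO1 by 0.55 (SE 0.10), but the value was -0.60 when ENO1 was read from its probe set without a shared-type ID. The size of 3 pairs depended on averaging the probe sets of each gene, which gave -0.91 for PFKP minus PFKM, 0.27 for ENO2 minus ENO1 and 0.17 for P4HA2 minus P4HA1. The P4HA pair was 0.53 without shared-type IDs, and the second called P4HA2 probe set ran the other way (-0.74). The PFKFB3, PDK4 and ALDOC pairs each rest on a gene that was dim in senescent cells.

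LDHB and LDHA differed by -1.03 ± 0.09 in senescent and -1.06 ± 0.04 in proliferating cells (SD, n = 5 each), a change of 0.03 (SE 0.04, exact permutation p = 0.50, adjusted 0.56). EGLN3 and EGLN1 gave a change of 0.16 (SE 0.31, exact permutation p = 0.62), which was 0.365 and passed when the probe sets of each gene were averaged (adjusted 0.026). These comparisons say how a pair changed between the states and not which gene of a pair has more transcript.

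**Figure D4:**
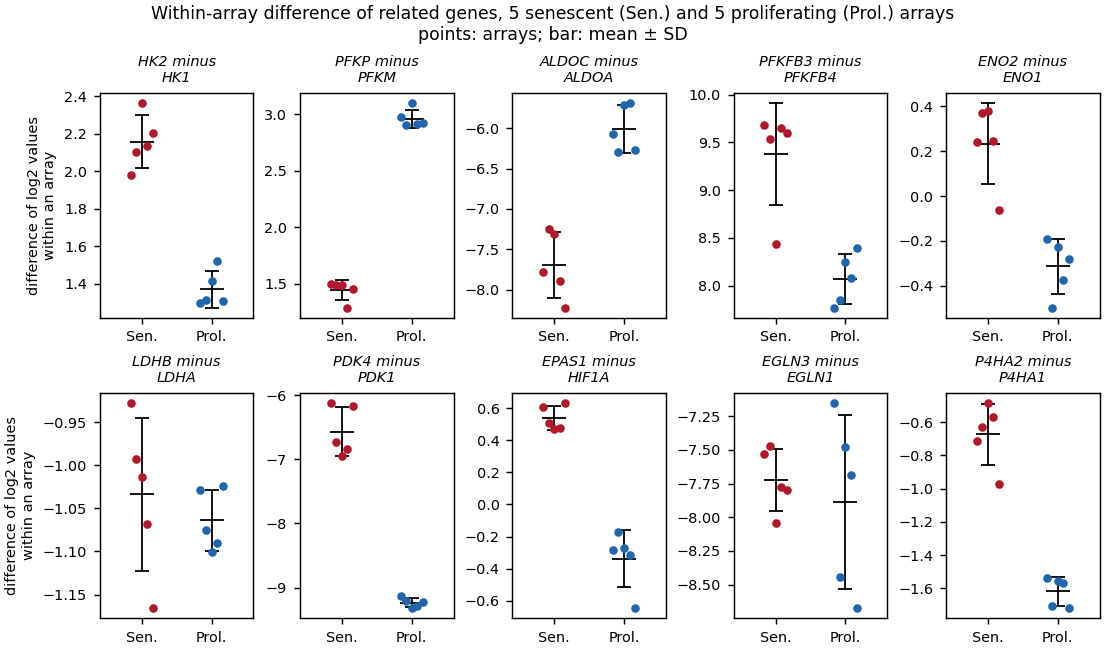
Difference of the log2 values of related genes within each array (y axes), for 5 senescent and 5 proliferating arrays with mean and SD. The groups are apart in 8 of 10 panels and overlap for LDHB minus LDHA (change 0.03) and EGLN3 minus EGLN1 (change 0.16). The share over other pairs of genes was not computed.

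Neighbouring pathways, read from lists fixed with earlier results of these data known, were mixed, beside the background of 30.5% higher and 29.8% lower given above. A list of glycolytic, side-branch and opposing enzymes outside the members had 9 tested genes, of which 5 rose and 1 fell (median 0.76). BPGM, which diverts a glycolytic intermediate to bisphosphoglycerate, rose 3.79-fold (11.64 ± 0.05 in senescent and 9.72 ± 0.09 in proliferating cells, SD, n = 5 each). PKLR, the pyruvate kinase gene of liver and red cells, rose by 1.56, and TIGAR, a p53-induced phosphatase gene that slows glycolysis, rose 2.82-fold (limma's adjusted p = 1.5e-05 and 9.0e-07). The gene that fell was PGM1, which links glycolysis to glycogen (-1.14). Of 9 hexose and lactate transporters and their partner, 6 rose and 1 fell (median 0.71), led by SLC2A6 (1.43), SLC2A8 (1.01, dim in both groups) and SLC2A12 (0.94). SLC2A1, the basal and hypoxia-inducible glucose transporter gene, differed by -0.01 and was not called, and the gene that fell was the monocarboxylate carrier SLC16A7 (-0.76).

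Pyruvate dehydrogenase genes and pyruvate carriers were divided, with 3 of 9 higher and 3 lower (median 0.09). MPC2, a subunit of the mitochondrial pyruvate carrier, rose 2.61-fold, and PDHX, which holds the complex together, rose by 0.90, while PDP1, the phosphatase that reactivates it, fell by 0.47. In the pentose phosphate pathway 2 of 7 rose and 3 fell (median -0.02), with TALDO1 (0.96) and PGD (0.41) higher and RPIA (-1.03) lower. In glycogen metabolism 3 of 13 rose and 3 fell (median 0.06). PPP1R3C, which targets protein phosphatase to glycogen, and PHKA1, a phosphorylase kinase subunit gene, rose 5.30-fold and 5.02-fold, and the phosphorylase gene PYGL fell 2.35-fold.

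Partners of oxygen sensing rose in 2 of 13 cases and fell in 4 (median -0.11). The largest differences were falls of ARNT2 (-1.65), of SIAH1 (-0.93), a ubiquitin ligase gene whose product targets the EGLN enzymes, and of RBX1 (-0.77), part of the VHL ligase. Of 26 further hypoxia-responsive genes 9 rose and 10 fell, with a median of 0.07. ANGPTL4, a secreted inhibitor of lipoprotein lipase, had 6.99 ± 0.20 in senescent and 1.97 ± 0.33 in proliferating cells (SD, n = 5 each), where it was dim, and rose by 5.02. All its proliferating values (1.72 to 2.34) lay below the 40th percentile of their arrays (2.66 to 2.69). It thus passed the filter through senescent arrays alone, and the size of its rise may depend on the background correction. ZNF395 (-3.08) and the collagen prolyl hydroxylase gene P4HA3 (-2.08) fell. This list thus held calls in both directions in near-equal number.

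**Figure D5:**
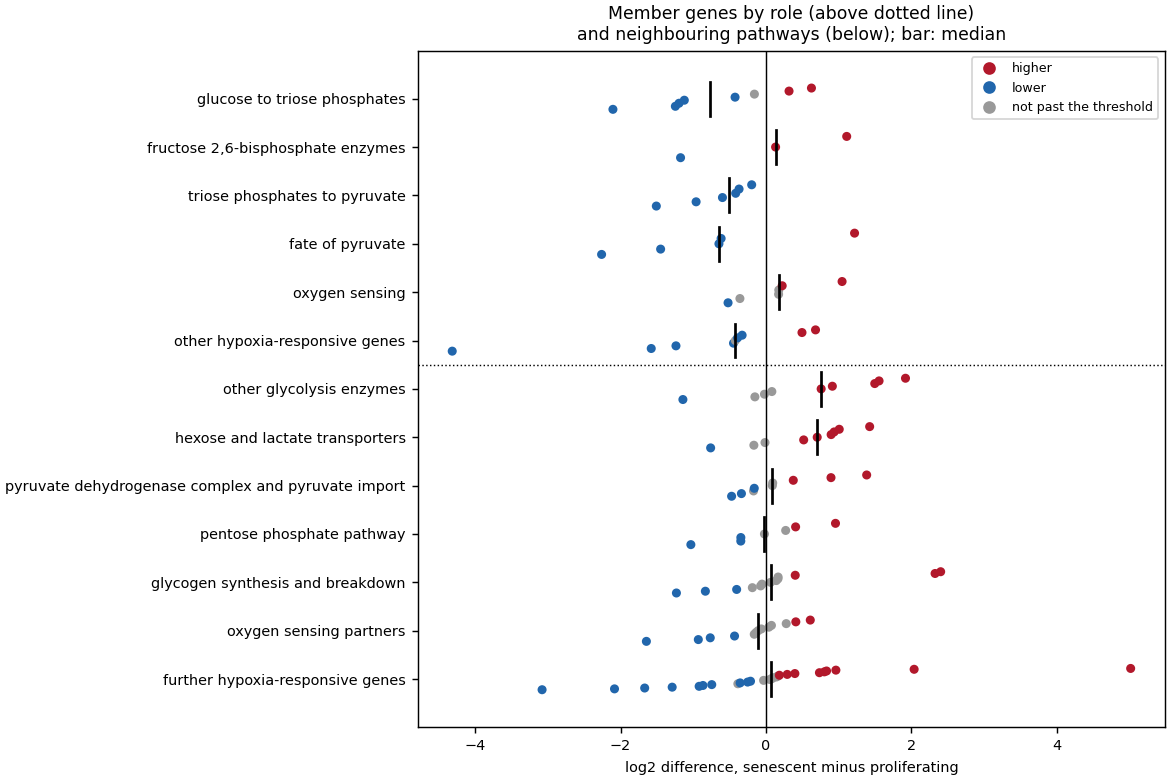
Log2 difference (x axis, senescent minus proliferating) of each tested gene, by role for the members above the dotted line and by list for neighbouring pathways below it, with the median as a bar. Medians of the glycolytic member rows lie at -0.77 and -0.51. Those of the row labelled other glycolysis enzymes and of the transporters lie at 0.76 and 0.71. The former row also holds side-branch and opposing enzymes such as BPGM and TIGAR.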

How the data were processed

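Total RNA, extracted with Trizol and labelled with biotin per the labels' protocols, was hybridised to Affymetrix HG-U133 Plus 2.0 arrays. The deposited values are log2 values for each probe set and array. Partek and GCRMA are named in the submitters' processing notes, with no settings given. The base of the logarithm was inferred from how far the values reach. The number of arrays limits the precision.

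Gene names came from GEO's annotation of the array, brought up to date by gene ID with RefSeq (GRCh38.p14). Outside 62 controls, 41091 had 1 symbol, 1801 several and 11721 none. The test took in the 32732 probe sets that exceeded the 40th percentile of the array in 5 or more of the 10 arrays. Groups were compared with lmFit and eBayes of limma 3.58.1 (R 4.3.3), two-sided, adjusted by Benjamini-Hochberg over all tested probe sets, and with exact permutation tests over arrays. The fit was tested on simulated data. Figures used matplotlib 3.10.9.

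Members, lists, pairs and the rule for named genes were chosen with earlier results of these data known. All members are named, with values by array for the 4 largest called differences of each role and for genes with opposite calls, and up to 3 called genes of each neighbouring list. SLC2A1, SLC16A7 and PGM1 were named after their values were seen. Alternatives were other filters, scalings, variance models, probe set choices, a replicate block, the ACTB covariate and left-out arrays. Lists were not tested as sets.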

Additional observations from a re-analysis of the deposited data

Results flagged for a closer look

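Single arrays stood apart from the other 4 of their group, by a gap to the nearest array that was above Dixon's 95% critical share of the group's range, in 20 of 122 groups of named genes, where chance gives about 5%. The genes share arrays and are not independent. The same share over all tested genes was not computed, so this count does not show an excess particular to the named genes. No cause was tested.

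Senescent array 5 was the lowest of its group for PGK1 (13.41), LDHB (12.98), PDK1 (10.60), PDK3 (4.01), MXI1 (10.33), PHKA1 (7.79), PYGL (7.96) and REEP5 (12.15). Proliferating array 5 was the lowest for EPAS1 (11.23), P4HA1 (12.71), DDIT4 (11.06), BHLHE40 (9.23) and MXI1 (8.87). Senescent array 3 was the highest for PFKFB4 (4.42), EGLN1 (11.22) and BPGM (11.72), and proliferating array 2 the highest for GAPDH (13.40) and ENO1 (12.54). VHL was highest on proliferating array 3 (4.90), and SIAH1 lowest on proliferating array 1 (10.30).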

How the results depend on the processing

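The counts of member genes that fell and rose were within 1.5 times 23 and 9 under 22 of 23 alternatives each, and the counts of probe sets under 21 of 22 each. Over the 23 alternatives, 38.0% to 72.8% of all tested genes were called, beside 60.2% in the main test. Leaving out each array in turn gave 23 to 24 genes lower and 6 to 10 higher, 49 to 50 probe sets lower and 9 to 14 higher, and 8 unequal pairs each time. Without probe sets ending in _s_at or _x_at, 12 of 25 genes and 20 of 39 probe sets fell and 5 of 5 pairs differed. Fewer features remained, and TPI1 (-0.41), ENO1 (-0.36) and P4HA1 (-0.035) were read from another probe set that did not pass (adjusted p 0.18, 0.069 and 0.65). With the ACTB covariate 5 genes and 7 probe sets rose, and the cause was not tested. Of 32 called genes 22 kept their call and direction under every alternative tried. The others were ALDOA, TPI1, PFKFB3, ENO1, PKM, ARNT, P4HA1, P4HA2, ANKRD37 and MXI1. Directions turned for PKM (0.015) and P4HA2 (-0.066) when probe sets were averaged by gene, and for VHL with the ACTB covariate (-0.66), none past the threshold. Among pairs, ENO2 minus ENO1 turned to -0.60 without shared-type IDs, LDHB minus LDHA to -0.023 with averaged probe sets, and EGLN3 minus EGLN1 to -0.014 without array 5 of both groups (range with each array left out -0.033, without proliferating array 5, to 0.35). Over all tested probe sets, arrays with the same replicate number did not deviate together (r from -0.06 to 0.09). Among the 37 members, array 5 was the lowest of its group for 20 genes in senescent and 21 in proliferating samples. Whether these arrays share a cause was not tested. A replicate block gave 25 genes lower and 8 higher. Of the 37 genes 3 were dim on every array, and 4 on every senescent array but not every proliferating one, which limits the size of their differences.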

Other observations

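Of 15 tested genes often used as references 5 rose and 5 fell, with a median difference of -0.03, which is close to the 30.5% higher and 29.8% lower of all tested genes. HPRT1, a purine salvage enzyme gene, fell 3.52-fold (9.19 ± 0.14 in senescent and 11.00 ± 0.13 in proliferating cells, SD, n = 5 each, limma's adjusted p = 5.1e-08), while EMC7 and REEP5, which act at the endoplasmic reticulum, rose by 1.01 and 0.69.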
